A study of Homo sapiens with 6 samples.

Results

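Head-to-head gene pairs are neighbouring genes that lie on opposite strands, are read away from each other, and share the short stretch of DNA between their start sites as a bidirectional promoter. Pairs of protein-coding genes were chosen by position alone from GENCODE release 44: the start site on the minus strand had to lie upstream of the start site on the plus strand, at most 1000 bp away, on chromosomes 1 to 22 or X. The rule found 887 pairs. They hold 1710 of the 19970 protein-coding genes on these chromosomes (8.56%), and the other 18260 genes are called unpaired below. Since 63 genes belong to more than 1 pair, the 887 pairs lie over 824 separate intervals and are not independent of each other.

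Bidirectional promoters are known to be rich in G, C and CpG dinucleotides and mostly to lack a TATA box. RNA polymerase II initiates on both strands at the edges of a shared nucleosome-free region, so that 1 open stretch of chromatin can serve both genes. Housekeeping genes, among them many for DNA repair, DNA replication, translation and the mitochondrion, are common in such pairs.

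The cells were MCF10A, a non-tumorigenic line from human mammary epithelium, and their open chromatin was mapped by ATAC-seq, in which Tn5 transposase cuts accessible DNA. All cells were first held for 30 min in a phosphate-free buffered salt solution. They were then kept for 30 min in the same solution alone (control), with 50 μM of the Zn2+ chelator tris(2-pyridylmethyl)amine (TPA), or with 30 μM ZnCl2, with 2 libraries per group and 6 in all. The study calls the 2 libraries biological replicates in its methods and technical replicates in its results, so the p-values may measure technical spread only, and the TPA and ZnCl2 comparisons share the same 2 control libraries.

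For each library the authors deposited 1 list of open regions called by HMMRATAC, each with its position and a whole-number score. A pair was open in a library when a region shared at least 1 bp with the interval between its start sites, and closed otherwise. The score percentile is the percentage of regions in the same list with a lower score, and a closed pair was given a percentile of 0. Without read counts the depth behind a call cannot be given. The lists differ in length, from 18887 regions (ZnCl2 replicate 2) to 44641 (control replicate 2). Values are therefore also given at an equal number of regions, where only the 18887 regions of highest score were kept from every list.

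The list of ZnCl2 replicate 2 stood apart. It has no region on chromosome 20 from position 28495981 to 50028410 (hg38), a stretch of 21.5 Mb in which the other 5 lists have between 296 and 476 regions, 262 of them (after merging) open in all 5. In the other 5 libraries the longest run of regions missing from 1 list alone was between 2 and 3 regions. The stretch holds 6 pairs, PLAGL2/POFUT1, GDF5/CEP250, TTI1/RPRD1B, WFDC3/DNTTIP1, TNNC2/SNX21 and ACOT8/ZSWIM3, each open in the other 5 libraries. Values that rest on them are given with and without the stretch. Of 10 genes typical of basal mammary epithelium, between 4 and 9 had a region within 500 bp of the start site per library, 4 had one in all 6, and TP63 had none in any. Only 1 start site per gene, the 5′ end of its record, was looked at, so other start sites of TP63 were not covered. Of 9 genes typical of other cells, 7 had none in any library, while PDGFRA had one in control replicate 2 and GFAP one in ZnCl2 replicate 1.

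The start sites of a pair lay between 1 and 995 bp apart, with a median of 132 bp and quartiles of 69 and 248.5 bp. At most 200 bp separated them in 595 pairs (67.1%), and at most 500 bp in 811 (91.4%). Around the limit of 1000 bp, PSMB1/TBP at 995 bp was open in 6 libraries, MS4A6A/MS4A4A at 991 bp in 0 and APBA3/MRPL54 at 990 bp in 6, and pairs just beyond it, TXNDC12/BTF3L4 at 1008 bp and ENSG00000268790/TMEM38A at 1024 bp, were open in 6. RefSeq start sites could be matched for both genes in 627 pairs, of which 480 were head to head by RefSeq too. Of 21 well-known bidirectional pairs that were looked for, 12 met the rule. The other 9, such as HSPD1/HSPE1, have gene records that overlap at their 5′ ends in this annotation.

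The intervals between the start sites show the range of these promoters. Each is printed on the plus strand of hg38, from the start site of the minus-strand gene to that of the plus-strand gene, and by the rule lies upstream of both genes' annotated transcripts. Capitals mark matches on either strand to short motifs. The TATA box was searched as TATAAA, and the NFY site as CCAAT. Factors of the ETS family were searched as CCGGAAG, NRF1 as GCGCATGC and YY1 as AAGATGGCG. The GC box was searched as GGGCGG, and the AP-1 site as TGANTCA. For the core of the metal response element, the letters were TGCACNC and TGCGCNC. Matches can overlap, and a match is a run of letters and not evidence of a bound factor. The first 3 are textbook pairs open in every library except COL4A4/COL4A3, the next 2 were open at the highest percentiles, and PPAT/PAICS lies at chr4:56435615-56435741, COL4A4/COL4A3 at chr2:227164453-227164624, SARS2/MRPS12 at chr19:38930763-38930944, TFB2M/CNST at chr1:246566261-246566444 and TTC13/ARV1 at chr1:230978875-230978981.
PPAT/PAICS: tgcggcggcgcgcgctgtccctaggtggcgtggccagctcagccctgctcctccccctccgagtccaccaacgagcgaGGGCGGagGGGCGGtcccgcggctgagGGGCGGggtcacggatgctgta
COL4A4/COL4A3: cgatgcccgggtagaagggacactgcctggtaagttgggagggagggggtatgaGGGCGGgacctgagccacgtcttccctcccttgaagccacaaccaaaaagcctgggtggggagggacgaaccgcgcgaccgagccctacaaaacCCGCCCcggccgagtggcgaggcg
SARS2/MRPS12: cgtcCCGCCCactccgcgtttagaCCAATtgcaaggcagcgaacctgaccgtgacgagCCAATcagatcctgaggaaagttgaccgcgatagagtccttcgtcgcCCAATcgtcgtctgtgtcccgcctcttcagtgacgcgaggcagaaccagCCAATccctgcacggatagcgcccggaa
TFB2M/CNST: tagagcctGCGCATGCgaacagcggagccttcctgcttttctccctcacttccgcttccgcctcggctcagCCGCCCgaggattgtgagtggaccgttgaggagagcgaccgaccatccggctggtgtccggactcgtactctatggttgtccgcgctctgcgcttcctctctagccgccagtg
TTC13/ARV1: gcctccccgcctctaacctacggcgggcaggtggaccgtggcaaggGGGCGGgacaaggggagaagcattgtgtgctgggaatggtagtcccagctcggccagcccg

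SARS2/MRPS12 holds 4 CCAAT matches and 1 GC box in 182 bases, and PPAT/PAICS holds 3 GC boxes in 127. TFB2M/CNST holds 1 NRF1 match and 1 GC box in 184 bases, and COL4A4/COL4A3 holds 2 GC boxes in 172.

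The next intervals belong to pairs whose calls differed between libraries or that were never open, and their values follow further on. U2AF1L4/PSENEN lies at chr19:35745445-35745600, CCDC163/MMACHC at chr1:45500079-45500300, SIRT6/ANKRD24 at chr19:4182566-4182689, ASH1L/MSTO1 at chr1:155563162-155563235, NUDT5/CDC123 at chr10:12195891-12195965, AGBL4/ELAVL4 at chr1:50023954-50024029 and DCST2/DCST1 at chr1:155033781-155033824.
U2AF1L4/PSENEN: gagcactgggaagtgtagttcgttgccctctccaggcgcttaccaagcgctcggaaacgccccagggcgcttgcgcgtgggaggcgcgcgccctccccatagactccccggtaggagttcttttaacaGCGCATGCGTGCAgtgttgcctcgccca
CCDC163/MMACHC: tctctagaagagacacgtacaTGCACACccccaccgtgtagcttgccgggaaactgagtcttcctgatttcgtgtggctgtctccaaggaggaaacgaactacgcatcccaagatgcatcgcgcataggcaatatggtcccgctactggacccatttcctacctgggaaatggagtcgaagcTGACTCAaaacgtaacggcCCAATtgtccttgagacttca
SIRT6/ANKRD24: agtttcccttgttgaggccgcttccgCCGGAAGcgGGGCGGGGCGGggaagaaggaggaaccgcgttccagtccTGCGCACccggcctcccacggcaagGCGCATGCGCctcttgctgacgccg
ASH1L/MSTO1: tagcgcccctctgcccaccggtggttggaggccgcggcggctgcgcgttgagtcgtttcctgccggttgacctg
NUDT5/CDC123: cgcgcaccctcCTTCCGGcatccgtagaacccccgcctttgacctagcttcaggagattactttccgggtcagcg
AGBL4/ELAVL4: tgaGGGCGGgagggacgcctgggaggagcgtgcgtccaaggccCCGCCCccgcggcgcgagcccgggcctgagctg
DCST2/DCST1: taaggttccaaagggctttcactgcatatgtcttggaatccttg

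AGBL4/ELAVL4, never open, is 80.3% G and C with 10 CpG and 2 GC boxes in 76 bases, whereas DCST2/DCST1, also never open, is 43.2% G and C with 0 CpG in 44 bases. CCDC163/MMACHC holds 1 AP-1 match, 1 CCAAT match and 1 metal response element core in 222 bases.

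Most head-to-head pairs were open in every library. In the control, 754 (85.0%) and 822 (92.7%) of the 887 pairs were open in replicates 1 and 2. With TPA, 794 (89.5%) and 808 (91.1%) were open. With ZnCl2, 802 (90.4%) and 684 (77.1%) were open. The order of the libraries by open pairs was the order of their lists by length, from the shortest, ZnCl2 replicate 2, to the longest, control replicate 2. At an equal number of regions the 6 libraries lay closer together, with 706 (79.6%) and 721 (81.3%) pairs open in the control, 690 (77.8%) and 693 (78.1%) under TPA, and 706 (79.6%) and 684 (77.1%) with ZnCl2. Without the chromosome 20 stretch ZnCl2 replicate 2 had 77.6% of pairs open on either count.

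**Figure D1:**
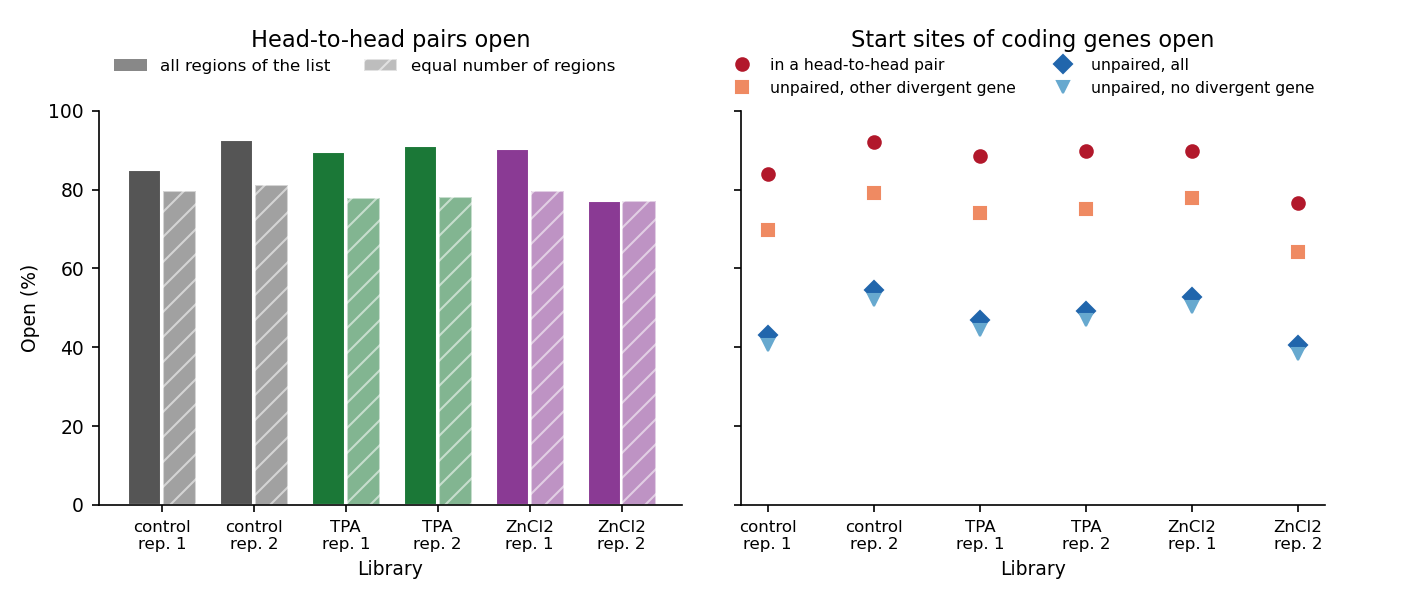
Left, percentage of the 887 head-to-head pairs that were open in each library, with all regions of its list (solid bars) and with the 18887 regions of highest score (hatched bars). Right, percentage of start sites of coding genes that were open in each library, for genes in a head-to-head pair (circles), unpaired genes with a divergent gene of another type (squares), all unpaired genes (diamonds) and unpaired genes with no divergent gene (triangles). The circles lie between 76.7% and 92.2% and above every other class in each library.

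Over the 6 libraries, 661 pairs (74.5%) were open in all 6, 99 in 5, 32 in 4, 15 in 3, 11 in 2, 8 in 1 and 61 (6.88%) in none. At an equal number of regions 585 pairs (66.0%) were open in all 6 and 116 (13.1%) in none. Of the 99 pairs open in 5 libraries, 79 were closed in ZnCl2 replicate 2, the shortest list, 12 in control replicate 1, 6 in ZnCl2 replicate 1, 2 in TPA replicate 1 and 0 in control replicate 2 or TPA replicate 2. The 6 pairs of the chromosome 20 stretch are among the 79. Taken by single start sites, 73.8% of paired sites were open in all 6 libraries and 7.13% in none, against 36.2% and 42.7% of unpaired sites.

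**Figure D2:**
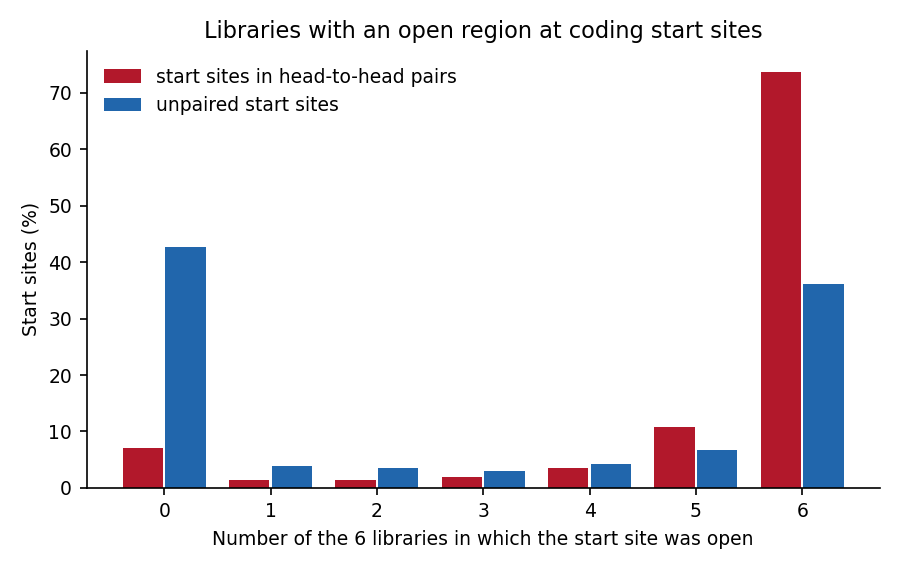
Percentage of start sites (vertical axis) that were open in 0 to 6 of the 6 libraries (horizontal axis), for the 1710 genes in head-to-head pairs (red) and the 18260 unpaired genes (blue). The paired sites gather at 6 libraries (73.8%), and the unpaired sites split between 0 (42.7%) and 6 (36.2%).

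Paired start sites were open far more often than unpaired ones in each of the 6 libraries. The share open was 84.0% and 92.2% of paired against 43.2% and 54.5% of unpaired sites in the control, 88.6% and 89.9% against 47.0% and 49.3% under TPA, and 89.7% and 76.7% against 52.7% and 40.6% with ZnCl2. The difference averaged 39.0 percentage points ± 2.34 (SD, n = 6 libraries) and lay between 36.0 and 41.6. It was above 0 in 6 of 6 libraries (two-sided exact sign-flip permutation test over libraries, p = 0.0312, the smallest that 6 libraries can give, adjusted p = 0.0312 over 4 such tests). All 6 libraries score the same genes in the same cell line. The p-values of the sign-flip tests therefore measure spread between libraries and not between genes or pairs. Unpaired genes with a divergent gene of another type (1615 genes, for instance with a divergent long noncoding RNA) were open at 64.1% to 79.2% of their sites, and the 16645 with no divergent gene at 38.4% to 52.1%. Paired sites were therefore above the former class in every library, a comparison for which no test was run.

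Paired sites also had a higher mean percentile. Counting closed sites as 0, it was 57.6 and 73.9 at paired against 27.2 and 39.2 at unpaired sites in the control, 64.4 and 69.3 against 30.1 and 33.1 under TPA, and 68.4 and 50.4 against 36.7 and 24.5 with ZnCl2. The difference averaged 32.2 points ± 3.73 (SD, n = 6, 6 of 6 above 0, exact sign-flip permutation p = 0.0312, adjusted p = 0.0312). As closed sites count as 0, most of this difference repeats that of the share open: among sites open in all 6 libraries it was 4.71 points (exact sign-flip permutation p = 0.0312). In the open sites of each library, the median percentile ranged from 71.8 to 86.4 at paired and from 65.1 to 79.0 at unpaired sites.

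Paired start sites had more G and C than unpaired ones (median 65.0% against 62.7% in 300 bp at the start). They also had a higher ratio of observed to expected CpG (0.876 against 0.665, from 250 bases before to 50 after the start). Open sites are richer in G and C, so the comparison was repeated within 5 classes of GC content of about equal size. For the classes, GC content was taken in the 300 bp centred on the start. In the lowest class, from 23.3% to 50.3% G and C, 70.7% of 87 paired and 13.1% of 3823 unpaired sites were open on average. In the highest, from 72.7% to 89.7%, the averages were 85.9% of 308 and 67.5% of 3798. Paired sites were the more often open in each class in 6 of 6 libraries, and the difference weighted over the classes was 31.6 points ± 2.29 (SD, n = 6, exact sign-flip permutation p = 0.0312), smaller than the 39.0 points without regard to GC content.

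Short motif matches also differed in frequency between the classes. Matches were sought on either strand from 250 bases before to 50 after the start. For the 91.4% of pairs with start sites at most 500 bp apart, the windows of both genes overlap, so 1 match can count at both. For the 67.1% at most 200 bp apart, each window also holds the partner's start site. How far this shaped the percentages was not tested. The ETS letters CCGGAAG were found at 27.3% of paired and 11.9% of all coding start sites, the NRF1 letters at 8.77% and 3.75%, the YY1 letters at 4.21% and 1.88%, the GC box at 72.0% and 52.4%, and CCAAT at 40.9% and 35.9%. The TATA box was the rarer at paired sites, at 5.09% against 10.8%, as was the AP-1 site, at 2.75% against 6.38%. The core of the metal response element, the site of the Zn2+-sensing factor MTF1, was found at 36.3% of paired and 33.1% of all sites. Paired sites open in all 6 libraries held the ETS letters in 28.9% of cases and those open in none in 6.56%. Unpaired sites open in all 6 held them in 17.9% and those open in none in 3.39%. For other motifs the classes were closer among sites open in all 6. There the TATA box was at 4.91% of paired and 5.12% of unpaired sites, and the GC box at 77.3% and 72.5%. CCAAT was at 40.8% of such unpaired sites against 45.3% of paired ones. The metal response element core had the other order, with 37.8% of paired and 39.8% of unpaired sites. NRF1 (9.43% and 5.70%), YY1 (3.96% and 2.89%) and AP-1 (2.06% and 4.64%) kept their order. At open unpaired sites the median GC content was 67.7% and the CpG ratio 0.838, against 65.3% and 0.888 at open paired sites, so that open sites of either class were more alike in CpG than the classes as wholes. These are counts of letters and no test was made.

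At nearly all open pairs 1 region covered both start sites. This was so for 738 of 754 open pairs in control replicate 1 and for 816 of 822 in replicate 2, for 782 of 794 and 790 of 808 under TPA, and for 788 of 802 and 676 of 684 with ZnCl2. Most intervals are much shorter than the regions, so a region that touches one nearly always covers both start sites. Over the libraries the share was 99.8% to 100% of open pairs at 1 to 200 bp and 77% to 91.3% at 501 to 1000 bp. The regions were centred close to the interval: the median distance between the centre of the region and that of the interval was between 172 and 294 bp. They reached a median of 775 and 1265 bp into the minus-strand gene and 728 and 1279 bp into the plus-strand gene in the control, 828 and 872 bp against 797 and 866 bp under TPA, and 1015 and 1212 bp against 955 and 1149 bp with ZnCl2. At unpaired sites the regions lay further downstream, with a median reach of 1002 bp into the gene and 612 bp upstream in control replicate 1, whereas paired sites in the same library had 743 bp and 917 bp. The other 5 libraries had the same order.

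The median width of the region over an open pair was 1730 and 2830 bp in control libraries, 1840 and 1945 bp under TPA, and 2215 and 2640 bp with ZnCl2. Control replicate 2 and ZnCl2 replicate 2 had the widest regions, and the medians over all regions of a list also differed, from 1070 to 2070 bp. Regions over paired sites were wider than those over unpaired sites by 60.8 bp ± 30.7 (SD, n = 6), between 10 and 90 bp, in 6 of 6 libraries (exact sign-flip permutation p = 0.0312, adjusted p = 0.0312), a small difference beside the spread between libraries. It was 46.7 bp at an equal number of regions, 36.7 bp in the upper 50% of each list and 104 bp ± 18.0 within classes of GC content. Very wide regions were concentrated in 1 library: 44 open pairs lay under a region over 10 kb in TPA replicate 2, against 0 to 7 in the other 5. The widest was 55320 bp, over YIPF2/TIMM29.

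The share of open pairs was compared by the distance between the start sites. Averaged over the libraries it was 84.1% ± 10.2 (SD, n = 6) of 146 pairs at 1 to 50 bp, 87.2% ± 7.13 of 196 at 51 to 100 bp, 87.0% ± 4.60 of 253 at 101 to 200 bp, 91.8% ± 3.59 of 216 at 201 to 500 bp and 85.5% ± 5.46 of 76 at 501 to 1000 bp. Pairs at most 200 bp apart were open less often than those over 200 bp apart, with a mean difference of -3.8 points ± 2.75 (SD, n = 6, between -9.10 and -1.85, below 0 in 6 of 6 libraries, exact sign-flip permutation p = 0.0312, adjusted p = 0.0312). As above, this p-value does not measure spread between pairs. The difference did not hold when 1 region had to cover both start sites (0.343 points, exact sign-flip p = 0.875) or among pairs also head to head in RefSeq (-1.28 points, exact sign-flip p = 0.125), and a longer interval has by construction more bases for a region to touch. It was larger at an equal number of regions (-6.41 points), in the upper 50% of each list (-7.11) and among pairs at most 500 bp apart (-5.43), each with an exact sign-flip p of 0.0312. ZnCl2 replicate 2 had the lowest share in each class, from 67.1% at 1 to 50 bp to 85.2% at 201 to 500 bp.

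**Figure D3:**
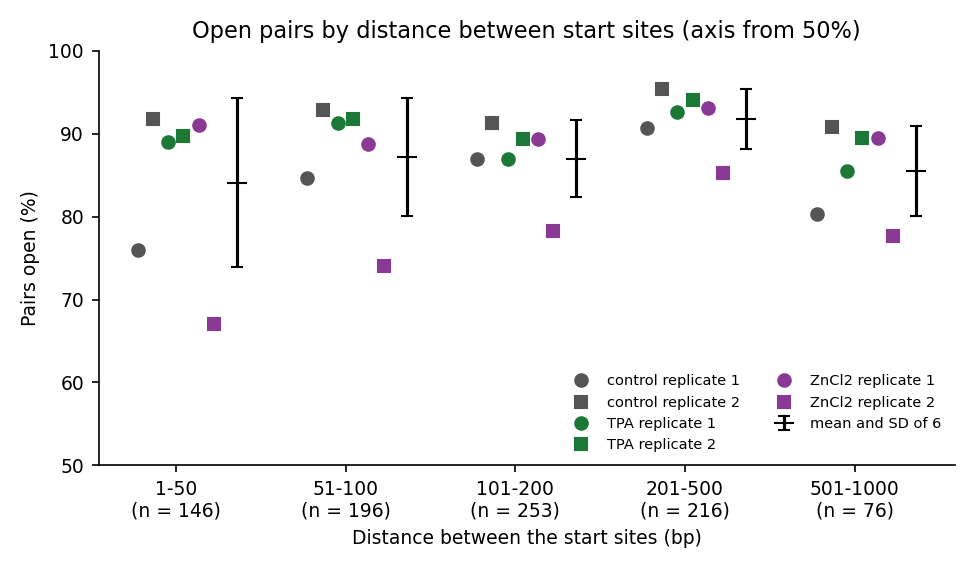
Percentage of head-to-head pairs open (vertical axis, from 50%) by the distance between the start sites (horizontal axis, with the number of pairs). Each point is 1 library, coloured by group, with circles for replicate 1 and squares for replicate 2, and the bar gives the mean and SD of the 6 libraries. The mean is highest at 201 to 500 bp (91.8%), and ZnCl2 replicate 2 is the lowest library in each class.

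Gene families were taken from lists of gene symbols or their first letters, which are neither complete nor exact. They differed in how often their pairs were open. Replication-dependent histone genes, which are transcribed in S phase to package new DNA, formed 15 pairs, mostly an H2A gene facing an H2B gene at a median of 236 bp. Of these, 13 were open in all 6 libraries (86.7%, against 74.5% of all pairs). H2AC25/H2BC26 was the highest, at percentiles of 98.8 and 99.5 in the control, 99.3 and 99.5 under TPA, and 99.1 and 95.9 with ZnCl2. H2AC1/H2BC1, genes of the testis-specific histones, was closed in all 6. The regions over histone pairs were wide, for example 4970 and 5470 bp in control libraries at H2BC21/H2AC20.

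DNA replication and repair genes on their list were in 26 pairs, of which 22 were open in all 6 libraries (84.6%) and 1 in none, RAD51D/FNDC8. Their mean percentiles over the libraries had a median of 76.9, against 73.5 for all pairs. XRCC3/ZFYVE21, with a gene of homologous recombination, was at 96.0 and 98.1 in the control, 98.2 and 97.8 under TPA, and 98.3 and 96.8 with ZnCl2. VPS35/ORC6, with a subunit of the origin recognition complex, was at 97.1 and 97.7, at 98.8 and 98.4, and at 97.3 and 93.7 in the same order. BRCA1/NBR1 was open in all 6 at lower percentiles, between 56.0 and 80.6. FKBP3/FANCM, with a helicase of the Fanconi anaemia pathway, was closed in control replicate 1 and at 58.0 in replicate 2, at 92.5 and 96.2 under TPA, and at 46.8 and 89.0 with ZnCl2. Both TPA libraries thus lay above both controls, while the ZnCl2 and control libraries overlapped. FKBP3/FANCM met none of the rules for naming pairs and was picked out for these values. At an equal number of regions, 14.4% of 762 pairs were higher in both TPA libraries than in either control, against 12% of 9851 coding start sites.

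Genes of the mitochondrial ribosome, respiratory chain and protein import were in 47 pairs, of which 31 were open in all 6 libraries (66.0%) and 1 in none, ATP5MJ/TDRD9. Open pairs numbered 41 and 45 in the control, 45 and 45 under TPA, and 43 and 32 with ZnCl2. The highest were NDUFA11/VMAC, with a subunit of complex I, between 98.6 and 99.2 in all 6 libraries, and TEPSIN/NDUFAF8 between 91.8 and 94.8. MRPL36/NDUFS6 was open in TPA replicate 2 alone, at 27.9. Cytosolic ribosomal protein genes are among the most highly transcribed in the cell. Those on their list were in 10 pairs, of which 5 were open in all 6 and 0 in none, at a median percentile of 50.6. The list left out PIDD1/RPLP2, which was open in all 6 libraries at percentiles between 68 and 90.4. RPL12/LRSAM1 was open in control replicate 2 and both TPA libraries only, at 34.3, 13.1 and 34.3.

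Of genes for zinc handling, 2 pairs met the rule and both were open in all 6 libraries. EXTL2/SLC30A7, with a transporter that moves zinc into the Golgi, was at 74.5 and 84.1 in the control, 80.8 and 93.3 under TPA, and 85.8 and 71.8 with ZnCl2. SLC39A6/ELP2, with a zinc importer of the plasma membrane, was at 79.9 and 87.2, at 80.8 and 87.9, and at 85.0 and 58.8. Treated and control libraries overlapped at both pairs. No metallothionein gene was in a pair. Genes of zinc-finger families were in 36 pairs, of which 27 (75%) were open in all 6 and 1 in none, SCGB2B2/ZNF302. Olfactory, taste and MAGE-type genes, families that are silent in most cells, were in 6 pairs, of which 5 were open in no library. The sixth, NOL9/TAS1R1, faces a gene of ribosome biogenesis and was open in 5 libraries.

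Among the well-known bidirectional pairs, 9 of 12 were open in all 6 libraries. RECQL4/LRRC14, with a DNA helicase, lay between percentiles of 93.5 and 97.9. PPAT/PAICS, which encodes enzymes of purine synthesis on both sides, was at 95.8 and 95.5 in the control, 93.6 and 93.6 under TPA, and 93.1 and 89.5 with ZnCl2. All 4 treated libraries lay below both controls there, although at an equal number of regions control replicate 2 and ZnCl2 replicate 2 were both at 89.5. SARS2/MRPS12, for a mitochondrial tRNA synthetase and a mitochondrial ribosomal protein, lay between 85.7 and 96.4, PRKDC/MCM4, for the catalytic subunit of DNA-PK and a subunit of the replicative helicase, between 76.1 and 94.8, and TK1/AFMID, with thymidine kinase, between 82.3 and 96.5. SIRT3/PSMD13 (50.4 to 82.3), XPO5/POLH (32 to 70.6) and TMEM258/FEN1 (32 to 91.5) had the widest spread. At TMEM258/FEN1, which joins a subunit of oligosaccharyltransferase to a flap endonuclease, replicates of the same group were far apart, at 45.1 and 91.5 in the control, 71.3 and 90.4 under TPA, and 83.4 and 32 with ZnCl2.

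The remaining well-known pairs were not open throughout. NPAT/ATM, a coactivator of histone genes facing the kinase of the DNA double-strand break response, was at 97.9 and 97.0 in the control, 96.7 and 98.1 under TPA and 96.9 in ZnCl2 replicate 1, and closed in ZnCl2 replicate 2, whose nearest region lay 21748 bp away. COL4A4/COL4A3, which encodes basement membrane collagen chains, was open in both control libraries at 42.6 and 48.4 and in both ZnCl2 libraries at 66.6 and 25.3, and closed in both TPA libraries, whose nearest regions lay 63197 and 63157 bp away. COL4A6/COL4A5, the X-linked collagen pair, was closed in all 6, with the nearest region between 38437 and 346937 bp away.

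A few other pairs were missing from 1 library while at the 80th percentile or above in the other 5, and these were picked after their values were seen. C1orf131/GNPAT, with an enzyme of ether lipid synthesis, was closed in control replicate 1 and at 97.7 in replicate 2, 95.9 and 96.4 under TPA, and 94.2 and 84.0 with ZnCl2. U2AF1L4/PSENEN, with a splicing factor and a subunit of gamma-secretase, was closed in ZnCl2 replicate 1 and at 92.6 and 96.1 in the control, 93.6 and 96.7 under TPA, and 89.8 in ZnCl2 replicate 2. Its nearest region in ZnCl2 replicate 1 lay 2231 bp away.

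**Figure D4:**
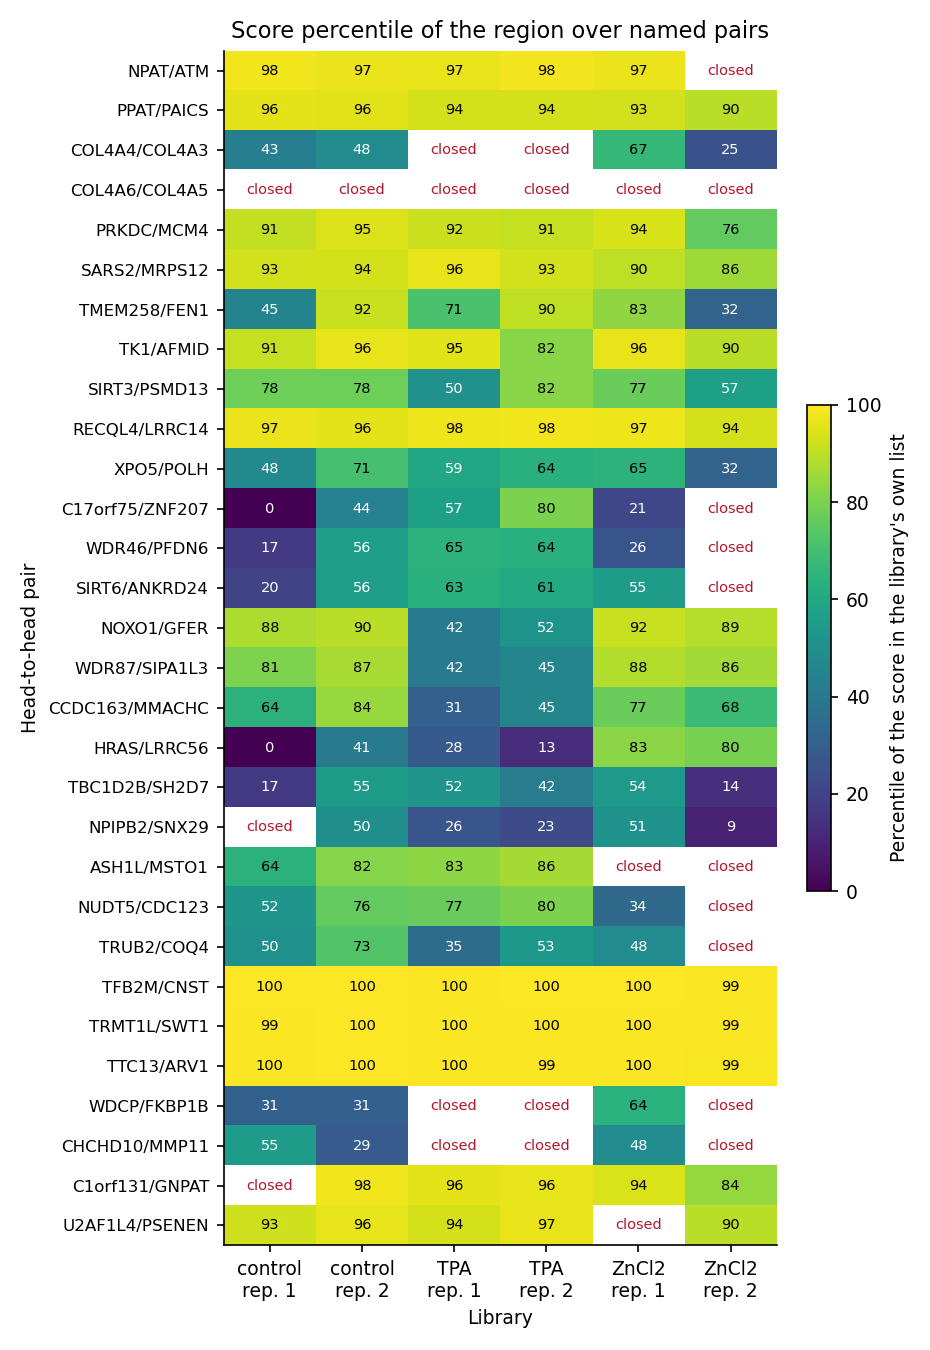
Score percentile of the region over named head-to-head pairs (rows) in each of the 6 libraries (columns), from 0 (dark) to 100 (light). White cells marked closed have no region between the start sites. TFB2M/CNST lies at a percentile of at least 99.3 in all 6 libraries, COL4A4/COL4A3 is closed in both TPA libraries, and ASH1L/MSTO1 is closed in both ZnCl2 libraries.

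The 3 pairs with the highest minimum percentile over the 6 libraries were chosen for it, so their narrow range is set by the choice. TFB2M/CNST, with a mitochondrial transcription factor, had a percentile between 99.3 and 99.7 in all 6 libraries, TRMT1L/SWT1, with a tRNA methyltransferase, between 99.3 and 99.7, and TTC13/ARV1, with a protein of lipid transport, between 99.1 and 99.7.

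The first question of the study's design was whether depletion of Zn2+ changed accessibility, and with all regions of the lists the TPA and control libraries overlapped in share, percentile and width. The share of open pairs was 90.3% ± 1.12 (SD, n = 2) under TPA and 88.8% ± 5.42 in the control, which is 1.47 points more (exact permutation test over libraries, two-sided, p = 1, adjusted p = 1 over 11 tests between groups). With 2 libraries against 2 the smallest possible p is 0.333, so no such test can pass 0.05. The mean percentile was 67.5 ± 3.58 against 66.1 ± 11.4 (exact permutation p = 1) and the median width 1892 ± 74.2 bp against 2280 ± 778 bp (exact permutation p = 1). The sign of the share depended on the length of the lists: at an equal number of regions, both TPA libraries (77.8% and 78.1%) lay below both controls (79.6% and 81.3%), a difference of -2.48 points (exact permutation p = 0.333). The difference in mean percentile was then -3.27 points (exact permutation p = 0.667). Unpaired sites were open at 35.0% and 35.8% under TPA on this scale, against 38.5% and 41.9% in the control. With all regions, the gap in share open between paired and unpaired sites was 41.1 points ± 0.687 under TPA and 39.3 ± 2.18 in the control (difference 1.8, exact permutation p = 0.667). The gap was larger in both TPA libraries than in both controls at an equal number of regions (difference 2.02 points, exact permutation p = 0.333), and in the upper 50% of each list the difference was 4.60 (exact permutation p = 0.333). With all regions, leaving out a control library moved it to 0.259 points (replicate 2 left out) or 3.35 (replicate 1 left out).

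Under excess Zn2+ the share, percentile and width with all regions likewise overlapped those of the control. The share of open pairs was 83.8% ± 9.41 (SD, n = 2) with ZnCl2, below that of the control (difference -5.07 points, exact permutation p = 0.667, adjusted p = 1), and it rested on ZnCl2 replicate 2, without which the difference was 1.58 points. Without the chromosome 20 stretch it was -4.77 points. At an equal number of regions the difference was -2.09 points (exact permutation p = 0.667) and without the stretch -1.87 (exact permutation p = 0.333). The mean percentile was 59.6 ± 12.8 (difference -6.51, exact permutation p = 0.667) and the median width 2428 ± 301 bp (difference 148 bp, exact permutation p = 1). The difference in mean percentile at an equal number of regions was -1.46 (exact permutation p = 1). The gap between paired and unpaired sites was 36.5 points ± 0.667, with both ZnCl2 libraries below both controls (difference -2.81, exact permutation p = 0.333, adjusted p = 1). Leaving out a control library moved it to -1.26 (replicate 1 left out) or -4.35 (replicate 2 left out). Between the treatments, the regions were narrower under TPA than with ZnCl2 in both libraries of each (1840 and 1945 bp against 2215 and 2640 bp, difference -535 bp, exact permutation p = 0.333, adjusted p = 1). The same order held at unpaired sites (1840 and 1880 bp against 2140 and 2590 bp) and over all regions of the lists (1160 and 1070 bp against 1450 and 2070 bp), so the pairs were not alone in it.

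Few pairs changed state in both libraries of a group. With all regions of the lists, 0 of 887 pairs were open in both TPA and neither control library (opened), against 0.25% of all 19970 coding start sites, and 3 (0.338%) were open in both control and neither TPA library (closed), against 0.611% of all sites. For ZnCl2, 0 pairs opened, against 0.11% of all sites, and 1 (0.113%) closed, against 0.125%. The 3 pairs closed under TPA were COL4A4/COL4A3, WDCP/FKBP1B and CHCHD10/MMP11, named after the calls were seen. At an equal number of regions control replicate 2 was closed at all 3 as well, so none of them counts as closed on that scale. WDCP/FKBP1B, with a regulator of the ryanodine receptor, was at percentiles of 31.0 and 30.6 in the control and 63.9 in ZnCl2 replicate 1, and closed in ZnCl2 replicate 2, so 3 of the 4 treated libraries lacked it. CHCHD10/MMP11, with a mitochondrial protein and a matrix metalloproteinase, was at 54.7 and 28.6 in the control and 48.4 in ZnCl2 replicate 1, and also closed in ZnCl2 replicate 2. The single pair closed with ZnCl2 was ASH1L/MSTO1, with a histone methyltransferase, at 64.4 and 81.7 in the control and 82.9 and 86.5 under TPA, with the nearest ZnCl2 regions 46296 and 46076 bp away.

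At an equal number of regions a pair counts as closed also when its region fell below the score that the list length set. On this scale 6 pairs (0.676%) opened under TPA, against 0.646% of all coding start sites, and 26 (2.93%) closed, against 3.47%. For ZnCl2, 3 pairs (0.338%) opened, against 0.901%, and 14 (1.58%) closed, against 0.646%. Many coding start sites were open in none of the 4 libraries compared. Of those open in any of the 4, 6 of 762 pairs (0.787%) opened under TPA, against 1.31% of 9851 start sites. Closed under TPA were 26 of the 762 pairs (3.41%), against 7.02%. With ZnCl2, 3 of 760 pairs (0.395%) opened, against 1.79% of 10056 start sites, and 14 (1.84%) closed, against 1.28%. No test was made of these differences. Without the chromosome 20 stretch 25 pairs closed under TPA and the other counts were the same. Of the 6 pairs that opened under TPA, the 3 with the largest change were C17orf75/ZNF207, WDR46/PFDN6 and SIRT6/ANKRD24. All 3 were open in both controls when all regions were used, at low percentiles in replicate 1 (0, 16.8 and 20.4) and between 44.2 and 55.8 in replicate 2, and they stood between 56.6 and 80.4 under TPA. They were in ZnCl2 replicate 1 at 21.2, 25.8 and 55.0 and closed in ZnCl2 replicate 2.

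Among the pairs closed under TPA on this scale, the 3 with the largest change were still present in the whole lists at lower percentiles. NOXO1/GFER, for an organiser of NADPH oxidase and a sulfhydryl oxidase of mitochondrial import, was at 87.7 and 89.5 in the control, 41.5 and 51.8 under TPA, and 91.7 and 89.0 with ZnCl2. WDR87/SIPA1L3 was at 80.8 and 86.8 in the control, 41.5 and 45.4 under TPA, and 88.5 and 86.3 with ZnCl2. CCDC163/MMACHC, with an enzyme that processes vitamin B12, was at 64.4 and 84.5, at 30.8 and 45.4, and at 77.4 and 68.0. At all 3 the TPA libraries lay below the other 4 without overlap. The 3 pairs were chosen for their fall against the control, so their separation from the control libraries is set by the choice. Their widths were not smaller in the same way: at NOXO1/GFER they were 2330 and 3830 bp in control libraries, 3030 and 2590 bp under TPA, and 3690 and 4370 bp with ZnCl2.

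For ZnCl2 the pair with the largest gain was HRAS/LRRC56, with the RAS GTPase gene. Its region was at percentiles of 0 and 41.2 in the control, 28.5 and 12.6 under TPA, and 82.6 and 79.5 with ZnCl2, where 0 is the lowest score of the list and not a missing region. Its width was 950 and 1890 bp in control libraries, 1010 and 980 bp under TPA, and 4050 and 4390 bp with ZnCl2. Both ZnCl2 libraries thus stood above the other 4 in score and in width. The pair was chosen for its gain in score, so its separation from the control libraries in score is set by the choice. The other pairs that opened, TBC1D2B/SH2D7 and NPIPB2/SNX29, did so at low percentiles, at 53.8 and 13.9 and at 51.3 and 9.41 with ZnCl2, beside 54.6 and 49.7 in control replicate 2, so that treated and control libraries overlapped when all regions were used. Of the pairs that closed, NUDT5/CDC123, for a hydrolase of nucleotide sugars and an assembly factor of eIF2, was at 52.4 and 76.0 in the control, 76.9 and 80.4 under TPA and 34.5 in ZnCl2 replicate 1, and closed in ZnCl2 replicate 2. TRUB2/COQ4, for a mitochondrial pseudouridine synthase and a factor of coenzyme Q synthesis, was at 50.1 and 72.7 in the control, 35.4 and 53.2 under TPA, and 48.4 and closed with ZnCl2.

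Pairs whose ranks did not overlap between the groups were counted in the same way. Of 762 pairs open in any of the 4 TPA and control libraries at an equal number of regions, 110 (14.4%) had a higher percentile in both TPA libraries than in either control, against 12% of 9851 coding start sites, and 213 (28.0%) a lower one, against 33.8%. Of 760 pairs, 129 (17.0%) were higher in both ZnCl2 libraries, against 21.4% of 10056 start sites, and 168 (22.1%) were lower, against 16.6%. With TPA the pairs thus had fewer lower ranks than coding start sites in general and with ZnCl2 more, and no test was made of these differences. Both comparisons share the control libraries.

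**Figure D5:**
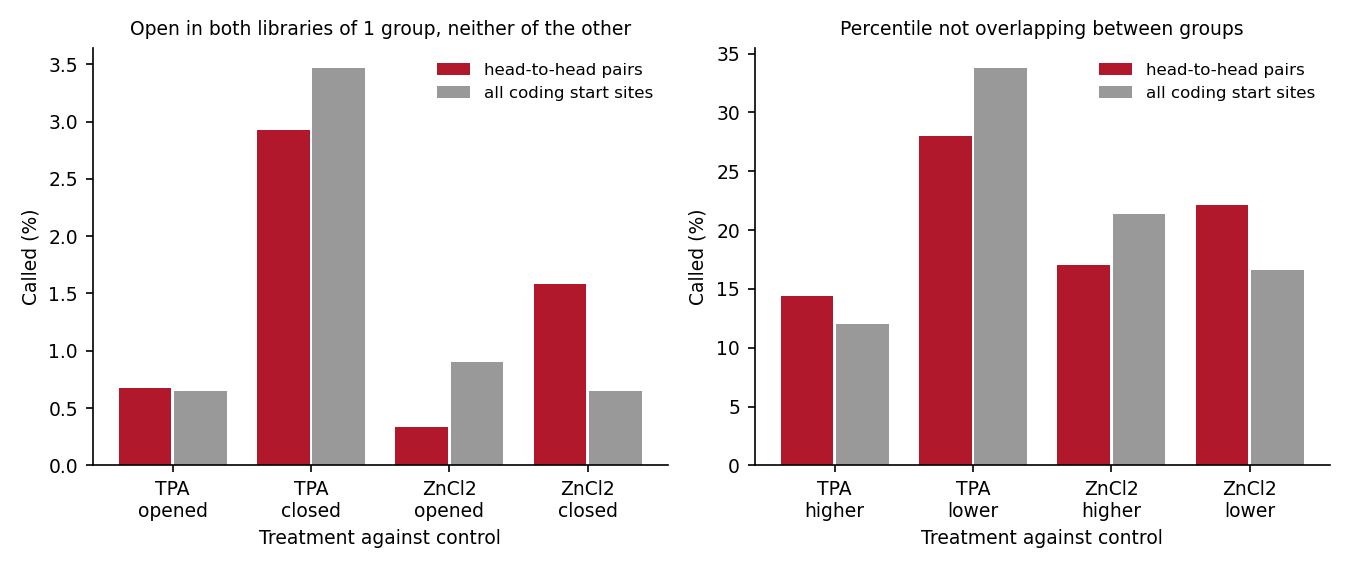
Percentage called at an equal number of regions for head-to-head pairs (red) and for all coding start sites (grey). Left, opened or closed, that is open in both libraries of 1 group and in neither of the other. The left panel counts all 887 pairs and all 19970 start sites, including those never open. Right, percentile higher or lower in both treated libraries than in either control. The vertical axes differ between the panels. For ZnCl2 1.58% of pairs closed against 0.646% of start sites, and for TPA 2.93% against 3.47%.

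The 61 pairs that were open in no library mostly lay far from any region. In 44 of them no region of any library came within 10 kb, in 4 some region came within 1000 bp, and the median distance to the nearest was 16665 bp. Among the 480 pairs that are head to head by RefSeq too, 5.42% were never open and 78.8% were open in all 6. The first 6 in order of position were AGBL4/ELAVL4, DCST2/DCST1, CHDH/IL17RB, MORC1/C3orf85, IGSF11/TEX55 and FOXL2/FOXL2NB. Some of their genes have known roles outside the mammary epithelium: ELAVL4 encodes an RNA-binding protein of neurons, the DCST genes serve the fusion of sperm and egg, MORC1 acts in the male germline, and FOXL2 is a transcription factor of the ovary. These examples do not describe the 61 pairs as a set, which also holds RAD51D/FNDC8 and ATP5MJ/TDRD9. By RefSeq 26 of the 61 were head to head, and 16 with both starts matched were not. At DCST2/DCST1 the nearest region lay between 3327 and 4267 bp away, and at AGBL4/ELAVL4 between 324272 and 596632 bp away.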

How the data were processed

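ATAC-seq (the OMNI-ATAC protocol) was performed on MCF10A cells in 3 groups of 2 libraries, and reads from repeated sequencing runs of a library were combined. The authors checked reads with FastQC 0.11.8, trimmed adapters, mapped read pairs to hg38 with HISAT2 2.1.0 and SAMtools 1.8, and annotated open chromatin per library with HMMRATAC, without pooling. The version of HMMRATAC and the kind of score are not given in the sources used here. The deposited lists give a position and a whole-number score per region, at least 30 in every list, with a width of at least 200 bp. They precede the merging and blacklist filtering of the study, and no read counts were used, so depth and counting error are unknown and accessibility fold changes were not computed.

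Regions on chromosomes 1 to 22 and X were compared with gene starts of GENCODE release 44. Of each list 72 to 203 regions lay on other contigs and were left out. No region ran past a chromosome end of hg38. At an equal number of regions, ties in score were broken by width and then by position. Groups were compared by two-sided exact permutation tests over libraries, and paired with unpaired start sites by exact sign-flip tests over the 6 libraries, with Benjamini-Hochberg adjustment. Pairs and gene lists were chosen with earlier results of these data known. Pairs were named if they were on a list of 21 well-known pairs, among the 3 with the largest change of mean percentile opened or closed with each treatment at an equal number of regions, the 3 with the highest minimum percentile, or the first 6 open in no library. Other pairs, among them examples from gene families, were named outside these rules. Alternatives were an equal number of regions, the upper 50% of each list, start sites at most 500 bp apart, an overlap of 50%, both start sites in 1 region, pairs open throughout, tied scores at their middle, unpaired sites without any divergent gene, 5 classes of GC content, the replicate number as a block and leaving out each library. Leaving out the chromosome 20 stretch, RefSeq pairs and a crossed block were added after the data were seen. The procedures were tested on simulated data. Some named pairs and sequences are not reported here. Computation used Python 3.11.15 with NumPy 2.4.6, SciPy 1.17.1 and Matplotlib 3.10.9.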

Additional observations from a re-analysis of the deposited data

Results flagged for a closer look

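The treatments moved in opposite directions at 2 of the named pairs when all regions were used, with both TPA libraries above and both ZnCl2 libraries below both controls. At ASH1L/MSTO1 the mean percentile with TPA was 84.7 points above that with ZnCl2, where both libraries had no region, and at NUDT5/CDC123 it was 61.4 points above. Both pairs were named for their fall with ZnCl2, so that side of the pattern is set by the choice. On the other side, TPA replicate 1 lay little above control replicate 2, at 82.9 against 81.7 for ASH1L/MSTO1 and 76.9 against 76.0 for NUDT5/CDC123. How many coding start sites have the same pattern was not counted. The difference was not tested at either pair, and ZnCl2 replicate 2, the shortest list, lacked both.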

How the results depend on the processing

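The share and percentile of 2 of the 3 comparisons between groups turned sign with the length of the lists. The share of open pairs was -2.48 points for TPA minus control and -0.395 for TPA minus ZnCl2 at an equal number of regions (-2.44 and -0.568 without the chromosome 20 stretch), and the mean percentile was -3.27 and -1.81 (-3.23 and -1.96). These alternatives keep fewer regions of the longer lists by construction.

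Leaving out 1 library gave, for TPA minus control, a share from -2.37 (without control replicate 1) to 5.30 (without control replicate 2), a width from -938 to 162 bp and a percentile from -6.64 to 9.42. For ZnCl2 minus control the share ran from -11.7 (without ZnCl2 replicate 1) to 1.58 (without ZnCl2 replicate 2), the width from -402 to 698 bp and the percentile from -15.6 to 2.55. For TPA minus ZnCl2 the share ran from -0.113 (without ZnCl2 replicate 2) to 13.2 (without ZnCl2 replicate 1), the width from -748 to -322 bp and the percentile from -1.16 to 17.0. The gap between paired and unpaired sites ran from 0.259 to 3.35 points for TPA minus control and from -4.35 to -1.26 for ZnCl2 minus control.

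The differences between paired and unpaired sites kept their sign under all alternatives that were run. The share ran from 31.6 to 41.4 points, the width from 36.7 to 104 bp and the percentile from 4.71 (sites open in all 6 libraries) to 34.1. Without 1 library the share was 38.5 to 39.6 points, the width 55 to 71 bp and the percentile 31.4 to 33.5, each with an exact sign-flip p of 0.0625, the smallest that 5 libraries can give. Pairs at most 200 bp apart minus those further apart gave -4.19 to -2.74 points without 1 library, -7.11 in the upper 50% of each list, -6.41 at an equal number of regions, -5.43 among pairs at most 500 bp apart, -2.65 with an overlap of at least 50%, -1.28 among pairs also head to head in RefSeq and 0.343 with both start sites in 1 region.

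Counts of pairs that changed state moved by construction with the lists and libraries kept. At an equal number of regions TPA opened 6 and closed 26 (25 closed without the stretch) and ZnCl2 opened 3 and closed 14. In the upper 50% of each list the counts were 7 and 10 for TPA and 1 and 11 for ZnCl2. Both start sites in 1 region gave 2 closed with ZnCl2, and pairs also head to head in RefSeq gave 1 closed with TPA and 0 with ZnCl2. Without 1 library, 0 to 43 opened and 3 to 13 closed with TPA (43 without control replicate 2, 13 without control replicate 1), and 0 to 14 opened and 1 to 84 closed with ZnCl2 (14 without control replicate 2, 84 without ZnCl2 replicate 1). Except at an equal number of regions, the share over all coding start sites was not computed for these alternatives. Their counts therefore show nothing particular to the pairs.

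Same-numbered libraries share only a number. Over pairs, their deviations from the group means correlated at 0.308 for TPA and control, -0.404 for ZnCl2 and control and -0.198 for TPA and ZnCl2. With the replicate number as a block, the mean differences were those without it (1.47 points for the share of open pairs, TPA minus control), and an average of 25 pairs opened and 12 closed per replicate pair with TPA and 27.5 and 72.5 with ZnCl2. Crossing the numbers for ZnCl2 and control gave 8 opened and 53 closed. The share over all coding start sites was not computed for these counts either, so they show nothing particular to the pairs.

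The lists hold calls and not reads, so a closed pair is one without a call, and depth, which limits such calls, is unknown. Gene starts of other transcripts were not used, and genes that overlap at their 5′ ends are outside the rule.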
